A study of Mus musculus with 18 samples.

Results

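The 10 genes described here encode the stress sensors of the endoplasmic reticulum (ER), the transcription factors that are held in or made downstream of its membrane, and the proteases that release them. They were chosen by name, from a list of the unfolded protein response (UPR) sensors and related factors, out of 23420 gene symbols in the count table. All 10 passed the filter on low counts, which kept 11762 genes. Atf6 and Ern1 also belong to a set of UPR-related genes that the study displayed from these same libraries, so their direction there is not independent of the present values.

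The UPR restores folding capacity when unfolded proteins gather in the ER. PERK (encoded by Eif2ak3) is a kinase that slows translation by phosphorylating eIF2α, and IRE1 (Ern1) is a kinase and endoribonuclease that cuts the Xbp1 mRNA so that it can be religated into the form that encodes the active XBP1 factor. ATF6 and its relative ATF6B travel to the Golgi, where the site-1 and site-2 proteases (Mbtps1, Mbtps2) cut them and free a transcription factor. CREB3, CREB3L1 and CREB3L2 are released by the same cuts. Blocking the proteasome stops ER-associated degradation, which is one way to load the ER with unfolded protein.

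NIH-3T3 cells are an established fibroblast line derived from mouse embryos. RNA-sequencing was performed on wild-type (WT) cells and on a single NIH-3T3 line in which Nrf1 had been disrupted with CRISPR/Cas9 (Nrf1-KO), with 3 biological replicates in each of 6 groups and 18 libraries in all. In each line the groups were the vehicle DMSO, 200 nM of the proteasome inhibitor carfilzomib (CFZ) for 6 h, and the same dose for 24 h. The time in DMSO is not given in the labels, and with 1 knockout line an effect of Nrf1 loss and a difference between lines cannot be told apart. Within a line the responses at 6 h and 24 h share their DMSO libraries.

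The count per library ran from 8333148 to 23917081, with a median of 14419832. Nfe2l1, the symbol for the disrupted gene, was lower in the Nrf1-KO libraries than in the WT libraries of the same treatment, by −1.31 ± 0.03 on the log2 scale (standard error, SE) in DMSO, −0.62 ± 0.03 at 6 h of CFZ and −1.47 ± 0.03 at 24 h. At 6 h it rose by 1.22 ± 0.03 in Nrf1-KO cells, to between 413.5 and 427 CPM (counts scaled to a common library total), against 437 to 457 CPM in WT DMSO. The 8 fibroblast markers summed to between 26710 and 28290 CPM in WT DMSO, and to between 4581 and 4610 CPM after 24 h of CFZ. In the Nrf1-KO cells the sums ran from 21270 to 25380 CPM in DMSO and from 7203 to 7991 CPM at 24 h. Their part in the results below was not tested, and in bulk RNA fewer cells of a type and less RNA per cell cannot be told apart. Epithelial, endothelial and leukocyte markers summed to no more than 13.03 CPM in any library, and the leukocyte gene Ptprc was at 0 in all WT libraries and between 0.719 and 1.331 CPM in Nrf1-KO libraries. Levels are CPM scaled by the TMM method, and a gene is called higher or lower where edgeR's quasi-likelihood test gave a Benjamini-Hochberg adjusted p under 0.05 over the 11762 genes, with no minimum fold.

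In DMSO the 10 mRNAs differed widely in abundance. Per kilobase of annotated exon, WT cells held most Atf6b, at 42.6 ± 1.098 CPM (SD, n = 3), then Xbp1 at 39.6 ± 0.90, Mbtps1 at 24.7 ± 0.14 and Creb3 at 15.5 ± 0.27. Creb3l2 followed at 11.9 ± 0.37, Atf6 at 9.70 ± 0.33, Eif2ak3 at 9.34 ± 0.12, Creb3l1 at 6.86 ± 0.24, Mbtps2 at 6.23 ± 0.06 and Ern1 at 2.19 ± 0.06 CPM per kilobase. The single pair of neighbours in this order whose libraries overlapped was Atf6 and Eif2ak3. After 24 h of CFZ in the Nrf1-KO cells the order had changed at both ends, with Xbp1 first at 33.9 ± 1.12, Ern1 at 7.17 ± 0.34 and Creb3l1 last at 2.53 ± 0.34 CPM per kilobase.

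**Figure D1:**
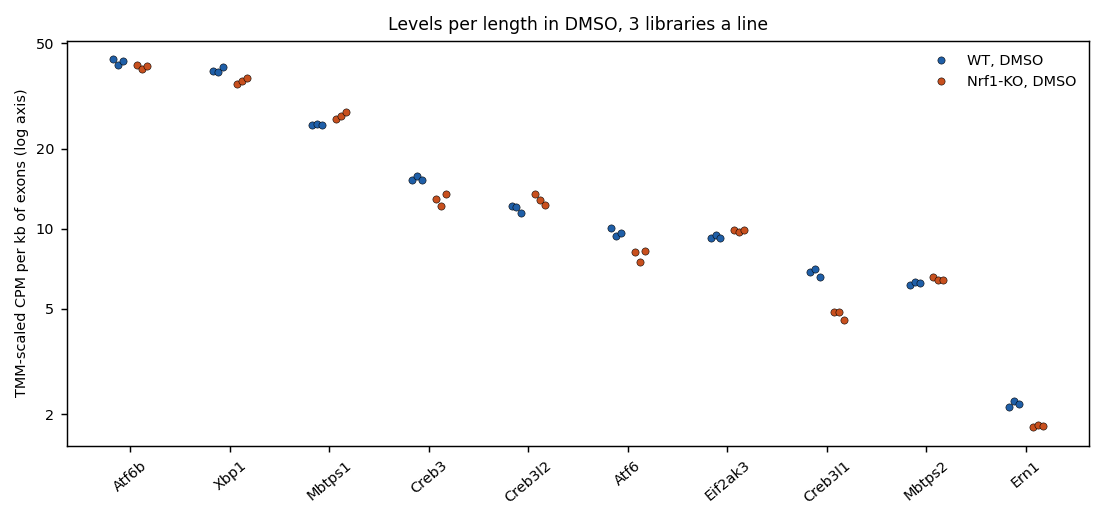
Each point is 1 DMSO library of WT (blue) or Nrf1-KO cells (orange). The y axis is TMM-scaled CPM per kilobase of exon on a log scale, and the genes are ordered by their WT mean, from Atf6b at 42.6 to Ern1 at 2.19 CPM per kilobase.

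CFZ moved nearly all of the 10 genes, in both directions. In WT cells 6 members were higher and 3 lower at 6 h, against a background of 35.6% of all tested genes higher and 36.2% lower. At 24 h 4 members were higher and 5 lower, with 43.2% and 40.5% of all genes called. In the Nrf1-KO cells 4 were higher and 4 lower at 6 h (34.5% and 35.0% of all genes), and 3 were higher and 7 lower at 24 h (44.4% and 41.1%). The median log2 fold change of the 10 was 0.26 at 6 h and −0.14 at 24 h for WT, and 0.07 and −0.17 for Nrf1-KO cells, while the median of all genes lay between −0.02 and 0.03 in the same comparisons. Since most genes moved, the counts alone do not set the members apart. Scaling by library size alone took the median of all genes to −0.15 on the log2 scale in WT cells at 6 h (in place of −0.02) and to −0.15 in Nrf1-KO cells at 24 h (in place of 0.03). It took the share of called genes that were higher from 49.6% to 35.4% in WT cells at 6 h (37.9% with upper-quartile scaling), from 49.7% to 36.4% in Nrf1-KO cells at 6 h and from 52.0% to 41.6% at 24 h. Between the lines that share moved from 46.9% to 57.7% in DMSO and from 49.8% to 60.8% at 6 h of CFZ. For the interaction of line and CFZ described below, 3498 genes were positive and 3532 negative at 24 h, against 2828 and 4236 with library size alone, and at 6 h the share moved from 51.8% to 60.3% with upper-quartile scaling.

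**Figure D2:**
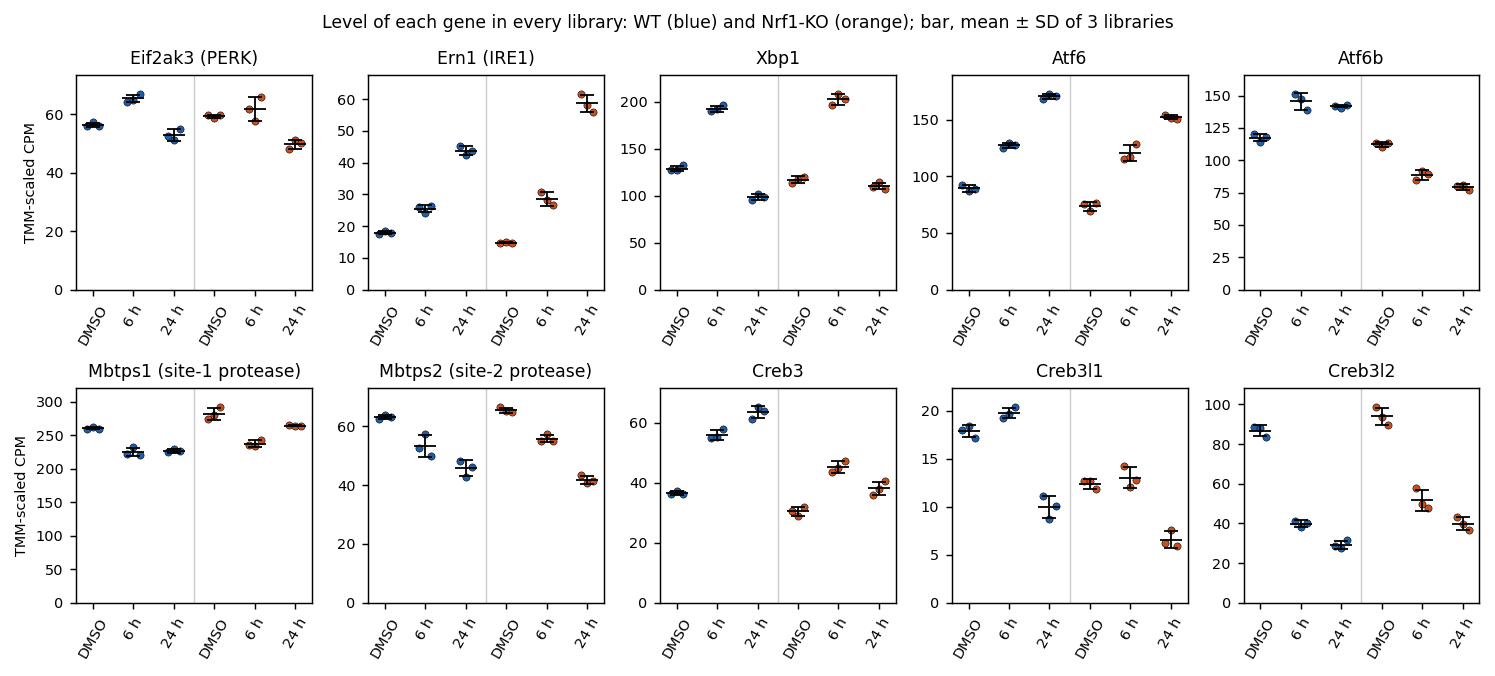
Each panel is 1 gene, with its TMM-scaled CPM (y axis, from 0) in every library of the 6 groups. Points are libraries and bars the mean ± SD of 3, with WT in blue and Nrf1-KO in orange. Ern1 and Atf6 climb from DMSO to 24 h in both lines, Creb3l2 drops, Xbp1 peaks at 6 h, and Atf6b goes up in WT and down in Nrf1-KO cells.

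Ern1, the gene of IRE1 (chr11:106394650-106487852, minus strand, GRCm38), showed the largest rise. Its 3 libraries held 17.4, 18.4 and 17.9 CPM in WT DMSO, 26.1, 24.2 and 26.2 at 6 h, and 45.1, 42.3 and 43.8 at 24 h. The Nrf1-KO libraries held 14.6, 14.96 and 14.8 CPM in DMSO, 30.8, 28.1 and 26.7 at 6 h, and 61.6, 58.2 and 56.1 at 24 h. No group overlapped with another of the same line, and every Nrf1-KO library was below the WT libraries in DMSO and above them at both times of CFZ. WT cells showed a log2 fold change over DMSO of 0.51 ± 0.07 (SE) after 6 h (adjusted p = 3.02e-08, edgeR) and 1.28 ± 0.06 after 24 h (2.14e-19). In Nrf1-KO cells it was 0.96 ± 0.07 (5.43e-14) and 1.98 ± 0.06 (4.7e-25). Between its lowest and highest group mean, in Nrf1-KO DMSO and Nrf1-KO CFZ 24 h, Ern1 differed 3.96-fold.

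The bases in front of the Ern1 gene are shown because it rose most, with those of Atf6b, which changed in opposite directions in the lines, and of Creb3l2, which fell most. They are RefSeq sequence on GRCm38.p6, read along the gene's strand from 250 bases before the RefSeq start, and end before the first transcribed base of both annotations used. Capitals mark matches on either strand to CCACG (one end of the ER stress response element), TGACGT (the core bound by CREB and ATF factors), TGACNNNGC (the antioxidant response element core) or TTGCNTCA (the C/EBP-ATF element).
Ern1, chr11:106487853-106488046: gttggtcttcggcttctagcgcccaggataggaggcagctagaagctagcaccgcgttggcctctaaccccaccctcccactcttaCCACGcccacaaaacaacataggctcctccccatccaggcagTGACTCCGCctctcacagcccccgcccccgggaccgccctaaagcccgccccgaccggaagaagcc
Atf6b, chr17:34646896-34647145: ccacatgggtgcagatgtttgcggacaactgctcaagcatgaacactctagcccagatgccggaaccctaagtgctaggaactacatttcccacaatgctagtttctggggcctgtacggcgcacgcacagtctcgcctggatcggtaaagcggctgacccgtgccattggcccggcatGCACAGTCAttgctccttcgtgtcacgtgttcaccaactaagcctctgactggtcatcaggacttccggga
Creb3l2, chr6:37442149-37442398: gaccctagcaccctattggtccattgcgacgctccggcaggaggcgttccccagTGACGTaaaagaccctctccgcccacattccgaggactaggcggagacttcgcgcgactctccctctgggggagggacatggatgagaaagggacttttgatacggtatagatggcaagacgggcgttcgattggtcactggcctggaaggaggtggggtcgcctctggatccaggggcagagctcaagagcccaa

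Of 32851 promoter windows of 250 bases, 28.3% held CCACG, 6.47% TGACGT, 10.2% TGACNNNGC and 3.12% TTGCNTCA. A match to CCACG is thus common, and matches of the other kinds are less so. The promoter table had an entry for 8 of the 10 members, all but Atf6 and Creb3l1. CCACG was found before the RefSeq start of Ern1, Mbtps1 and Creb3, TGACGT before that of Creb3l2, and TGACNNNGC before those of Ern1 and Atf6b. The Creb3 window (chr4:43562408-43562657) lies inside the gene as placed below, so its matches are not in front of that gene model. The whole ER stress response element, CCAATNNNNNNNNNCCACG, was in 0.113% of all windows and in none of the 8. CCAAT alone, in 33.8% of windows, occurred 6 times before Eif2ak3. These matches describe letters in a window and say nothing of binding.

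Eif2ak3, the gene of PERK (chr6:70844515-70905245, plus strand), stayed within a narrow range, its highest group mean being 1.31 times its lowest. In WT cells it held 55.8, 57.1 and 55.8 CPM in DMSO, 64.2, 64.9 and 66.8 at 6 h, and 52.5, 51.2 and 55.0 at 24 h. The Nrf1-KO values were 59.6, 58.7 and 59.5 CPM in DMSO, 61.6, 57.5 and 65.7 at 6 h, and 48.0, 51.0 and 49.98 at 24 h. It rose at 6 h in WT cells, by 0.22 ± 0.04 on the log2 scale (adjusted p = 7.52e-05), a call that was lost with scaling by library size alone (0.08, adjusted p = 0.0946). It fell at 24 h in the Nrf1-KO cells, by 0.25 ± 0.04 (4.63e-06), or by 0.44 with library size alone. The Nrf1-KO libraries at 6 h straddled those in DMSO (0.05 ± 0.05, adjusted p = 0.372), and in WT cells at 24 h the difference was −0.09 ± 0.05 (0.073), which was called without WT DMSO replicate 1 (−0.13, adjusted p = 0.0287) or WT CFZ 24 h replicate 3 (−0.12, 0.0355). That fall was also called with upper-quartile scaling (−0.23, 4.25e-05), library size alone (−0.19, 0.000295), no filter (−0.14, 0.00855) and the compared groups only (−0.12, 0.0131). On the opposite strand, annotated genes overlap 8.05% of its exon bases.

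Xbp1 (chr11:5520659-5525893, plus strand) had a transient course. In WT cells its libraries held 127, 127 and 132 CPM in DMSO, 190, 192 and 196 at 6 h, and 95.2, 102 and 98.4 at 24 h. The Nrf1-KO libraries held 114, 117 and 120 CPM in DMSO, 196, 208 and 203 at 6 h, and 110, 114 and 107 at 24 h. All 6 libraries at 6 h were above every library of the other times, and in WT cells those at 24 h were all below DMSO. The rise at 6 h was 0.58 ± 0.04 in WT cells (adjusted p = 2.04e-15) and 0.79 ± 0.04 in Nrf1-KO cells (1.75e-18). From 6 h to 24 h Xbp1 fell by 0.96 ± 0.04 in WT cells (1.64e-20) and by 0.88 ± 0.04 in Nrf1-KO cells (7.07e-20). At 24 h it was below DMSO by −0.38 ± 0.04 in WT cells (1.08e-10) and by −0.09 ± 0.04 in Nrf1-KO cells (0.0268), the second being lost without Nrf1-KO DMSO replicate 3 (−0.07, adjusted p = 0.117) and deeper with library size alone (−0.27).

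The stretch of Xbp1 on which IRE1 acts is shown because the counts cannot resolve it. It is the 26-base intron at chr11:5524279-5524304 (GRCm38), in capitals with 15 bases of exon on each side, and it was found in 3 of 4 annotated Xbp1 transcripts.
Xbp1: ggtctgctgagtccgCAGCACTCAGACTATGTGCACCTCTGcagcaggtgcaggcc
It was located by a pair of CNGCAGC matches, the loop sequence that IRE1 cuts, set 26 bases apart. Such a pair occurred in 209 of 141767 mouse transcripts (0.147%), from 81 genes. Reads counted per gene take spliced and unspliced Xbp1 together, so the values above are total Xbp1 mRNA and hold no measure of IRE1 activity.

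Atf6 (chr1:170704674-170867771, minus strand) rose with time in both lines. WT libraries held 92.7, 86.7 and 89.2 CPM in DMSO, 125.1, 129 and 127 at 6 h, and 168, 172 and 171 at 24 h. Nrf1-KO libraries held 75.6, 69.1 and 76.2 CPM in DMSO, 116, 117 and 128 at 6 h, and 154, 152 and 150 at 24 h. The 3 groups of each line did not overlap. The log2 fold change reached 0.51 ± 0.04 after 6 h (adjusted p = 1.3e-12) and 0.93 ± 0.04 after 24 h (3.74e-20) in WT cells, and 0.70 ± 0.04 (1.71e-15) and 1.04 ± 0.04 (2.2e-21) in Nrf1-KO cells.

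Atf6b (chr17:34647146-34655074, plus strand), whose product shares the processing of ATF6, moved in opposite directions in the 2 lines. In WT cells it held 120, 114 and 118 CPM in DMSO, 151, 147 and 139 at 6 h, and 142, 141 and 142 at 24 h. Nrf1-KO libraries held 114, 110 and 113 CPM in DMSO, 84.5, 91.7 and 89.3 at 6 h, and 80.4, 81.2 and 76.9 at 24 h. Every WT library with CFZ was above every DMSO library, and every Nrf1-KO library with CFZ was below. WT cells gained 0.31 ± 0.04 at 6 h (adjusted p = 1.09e-08) and 0.27 ± 0.04 at 24 h (8.56e-08) on the log2 scale, and Nrf1-KO cells changed by −0.35 ± 0.04 (5.82e-09) and −0.50 ± 0.04 (2.68e-13). The WT gain was smaller but still called at 6 h with library size alone (0.18, adjusted p = 0.000102) and at 24 h with upper-quartile scaling (0.13, 0.00172). The lines did not differ beyond the test's threshold in DMSO (−0.07 ± 0.04, adjusted p = 0.138). Genes called higher in WT and lower in Nrf1-KO cells numbered 264 at 6 h (2.24% of those tested) and 377 at 24 h (3.21%), and 99 were so called at both times (0.842%), a count made after the values of Atf6b had been seen.

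**Figure D3:**
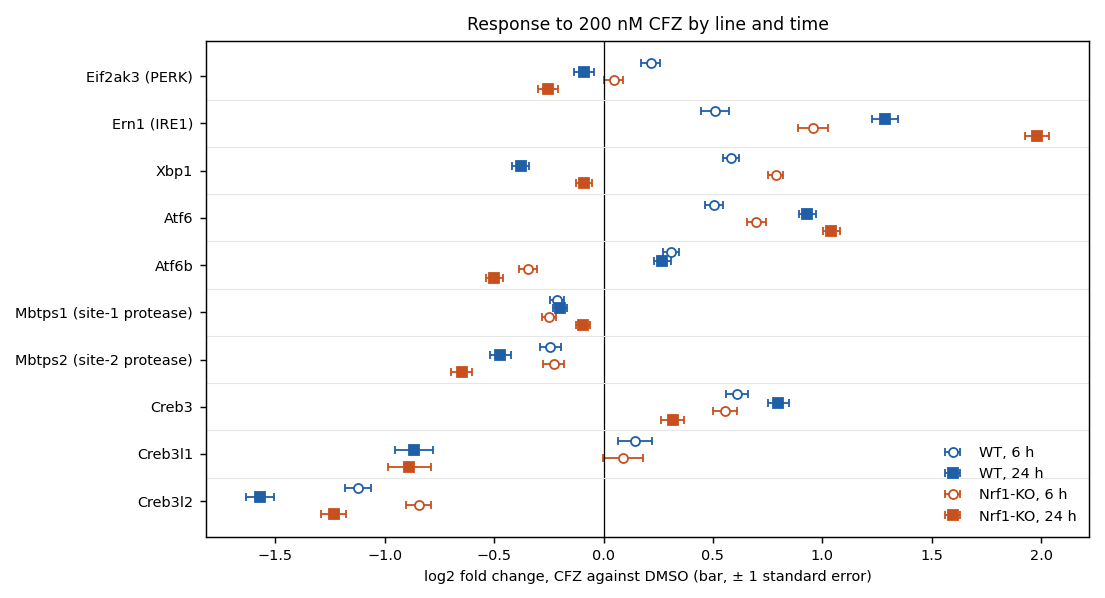
The x axis is the log2 fold change of CFZ over DMSO with ± 1 SE, for WT (blue) and Nrf1-KO cells (orange) at 6 h (open circles) and 24 h (filled squares). Ern1 in Nrf1-KO cells at 24 h lies farthest right at 1.98 and Creb3l2 in WT cells at 24 h farthest left at −1.57, and the WT and Nrf1-KO points of Atf6b lie on opposite sides of 0.

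The genes of both Golgi proteases fell. Mbtps1 (chr8:119508156-119558735, minus strand), the site-1 protease, was the most abundant member per library. It held 260, 262 and 259 CPM in WT DMSO, 222, 232 and 220 at 6 h, and 224, 229 and 226 at 24 h. The Nrf1-KO libraries held 274, 280 and 291 CPM in DMSO, 235, 234 and 243 at 6 h, and 265, 264 and 264 at 24 h. All CFZ libraries were below the DMSO libraries of their line, by −0.21 ± 0.03 and −0.20 ± 0.03 on the log2 scale in WT cells at 6 h and 24 h (adjusted p = 6.91e-07 and 1.33e-06), and by −0.25 ± 0.03 (4.55e-08) and −0.09 ± 0.03 (0.00677) in Nrf1-KO cells. The last call was lost without Nrf1-KO DMSO replicate 3 (−0.07, adjusted p = 0.0528). With library size alone the falls of Mbtps1 were deeper, at −0.35 and −0.30 in WT cells and −0.28 at 24 h in Nrf1-KO cells.

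Mbtps2 (chrX:157535371-157598715, minus strand), the site-2 protease, fell further and went on falling. Its WT libraries held 62.3, 63.6 and 63.1 CPM in DMSO, 52.6, 57.2 and 49.7 at 6 h, and 48.1, 42.8 and 46.2 at 24 h, and its Nrf1-KO libraries 66.3, 65.0 and 64.8, then 55.0, 57.2 and 55.0, then 43.3, 40.6 and 41.4. Both lines showed 3 groups without overlap. The log2 fold change was −0.24 ± 0.05 at 6 h and −0.47 ± 0.05 at 24 h in WT cells (adjusted p = 3.51e-05 and 1.68e-10), and −0.23 ± 0.05 and −0.65 ± 0.05 in Nrf1-KO cells (0.000101 and 4.83e-14). The retrogene Yy2 lies within it on the same strand and covers 28.4% of its exon bases, where the assignment of reads is uncertain. Yy2 itself held between 6.09 and 16.03 CPM and was called higher with CFZ in both lines at both times, by 0.73 ± 0.09 in Nrf1-KO cells at 24 h.

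The 3 CREB3-family genes each took a course of their own. Creb3 (chr4:43562332-43567060, plus strand), a factor of the secretory pathway, held 36.2, 37.4 and 36.3 CPM in WT DMSO, 54.9, 55.2 and 57.8 at 6 h, and 61.3, 65.1 and 64.0 at 24 h. Its Nrf1-KO libraries held 30.7, 28.8 and 32.0 CPM in DMSO, 43.7, 44.9 and 47.4 at 6 h, and 36.1, 37.8 and 40.6 at 24 h. WT values climbed through both times, whereas Nrf1-KO values were highest at 6 h, and none of these groups overlapped within a line. Creb3 rose by 0.61 ± 0.05 at 6 h (adjusted p = 1.81e-12) and 0.80 ± 0.05 at 24 h (4.73e-16) in WT cells, and by 0.56 ± 0.05 (1.33e-10) and 0.32 ± 0.05 (1.95e-06) in Nrf1-KO cells. Between 6 h and 24 h it gained 0.19 ± 0.05 in WT cells (0.000747) and fell by 0.24 ± 0.05 in Nrf1-KO cells (0.000179). With library size alone the rise of Creb3 at 24 h in Nrf1-KO cells was 0.13 (adjusted p = 0.0205). Gba2 and Tln1 on the opposite strand overlap 20.8% of its exon bases, and whether counting used strand is not given in the sources used here. Tln1 was not called with CFZ in either line and was lower in Nrf1-KO than in WT cells in DMSO (−0.49 ± 0.07). Gba2 was lower at 6 h in WT cells (−0.36 ± 0.12) and higher at 24 h in both lines (0.61 ± 0.10 in WT and 0.78 ± 0.11 in Nrf1-KO cells). Their part in the values of Creb3 was not tested.

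Creb3l1 (chr2:91982328-92024502, minus strand), known as OASIS and needed for type I collagen production in bone, changed late. It held 17.95, 18.4 and 17.2 CPM in WT DMSO, 19.3, 19.7 and 20.3 at 6 h, and 11.1, 8.75 and 10.1 at 24 h. Its Nrf1-KO libraries held 12.7, 12.7 and 11.8 CPM in DMSO, 14.2, 12.1 and 12.8 at 6 h, and 6.27, 7.60 and 5.90 at 24 h, each below all WT libraries of the same treatment. At 6 h neither line passed the threshold (0.14 ± 0.08, adjusted p = 0.0894, in WT and 0.09 ± 0.09, 0.392, in Nrf1-KO cells). By 24 h Creb3l1 had fallen by 0.86 ± 0.09 in WT cells (1.25e-10) and by 0.89 ± 0.10 in Nrf1-KO cells (7.96e-10).

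Creb3l2 (chr6:37327255-37442146, minus strand), whose product BBF2H7 drives secretion of matrix in cartilage, showed the deepest fall. WT libraries held 88.6, 87.9 and 83.7 CPM in DMSO, 41.3, 38.1 and 40.2 at 6 h, and 28.5, 27.5 and 31.6 at 24 h. Nrf1-KO libraries held 98.4, 93.6 and 89.7 CPM in DMSO, 57.7, 49.6 and 47.7 at 6 h, and 43.3, 39.8 and 36.7 at 24 h. At both times of CFZ every Nrf1-KO library was above every WT library. The log2 fold change was −1.12 ± 0.06 at 6 h and −1.57 ± 0.06 at 24 h in WT cells (adjusted p = 4.74e-17 and 7.41e-21), and −0.84 ± 0.06 and −1.23 ± 0.06 in Nrf1-KO cells (3.55e-14 and 3.42e-19).

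Between 6 h and 24 h of CFZ, 3 members were higher and 5 lower in WT cells, where 36.9% and 35.4% of all genes were called, and 3 were higher and 7 lower in Nrf1-KO cells, where 38.7% and 38.3% were. Ern1 rose most in both lines over this interval, by 0.77 ± 0.06 in WT and 1.02 ± 0.05 in Nrf1-KO cells, and Creb3l1 fell most, by 1.01 ± 0.09 and 0.98 ± 0.11. Atf6b in WT cells (−0.04 ± 0.04, adjusted p = 0.357) was called only without WT CFZ 6 h replicate 3 (−0.11, 0.0143), and Mbtps1 in WT cells differed by 0.01 ± 0.03 (0.718).

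Without CFZ the lines differed modestly in these genes. In DMSO 1 member was higher in Nrf1-KO than in WT cells and 5 were lower, with 25.7% and 29.1% of all genes called. Creb3l1 was the most reduced (−0.54 ± 0.08, adjusted p = 6.81e-07), followed by Atf6 (−0.28 ± 0.04, 1.13e-06), Ern1 (−0.27 ± 0.07, 0.00111), Creb3 (−0.26 ± 0.05, 0.00011) and Xbp1 (−0.13 ± 0.04, 0.00256). Mbtps1 was the one called higher (0.12 ± 0.03, 0.00248). The call on Xbp1 was lost with scaling by library size alone (−0.09, adjusted p = 0.0583). Creb3l2 (0.11 ± 0.05, 0.0691) was called without WT DMSO replicate 1 (0.14, 0.0422) or Nrf1-KO DMSO replicate 3 (0.15, 0.0331). It was also called with upper-quartile scaling (0.0369), library size alone (0.00858), no filter (0.0168), a replicate block (0.0228) and the compared groups only (0.0129).

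With CFZ for 6 h 3 members were higher and 3 lower in Nrf1-KO than in WT cells (30.5% and 30.8% of all genes), and at 24 h 4 were higher and 5 lower (35.6% and 36.4%). At 24 h Atf6b was lower by −0.83 ± 0.04 (adjusted p = 1.84e-18), Creb3 by −0.74 ± 0.05 (1.03e-14) and Creb3l1 by −0.56 ± 0.11 (2.92e-05). Creb3l2 was higher by 0.45 ± 0.07 (1.31e-06), Ern1 by 0.42 ± 0.05 (2.59e-09), Mbtps1 by 0.22 ± 0.03 (3.86e-07) and Xbp1 by 0.16 ± 0.04 (0.000629). Atf6 stayed lower in Nrf1-KO cells at 24 h (−0.17 ± 0.04, 0.000199), and Mbtps2 was marginal (−0.12 ± 0.05, 0.0349). The call on Mbtps2 was lost without WT CFZ 24 h replicate 1 or 3 or Nrf1-KO CFZ 24 h replicate 2 or 3 (−0.09 to −0.11, adjusted p from 0.109 to 0.192), and also under DESeq2 (adjusted p = 0.101), with upper-quartile scaling (0.164), with no filter (0.105) and with the compared groups only (0.0898). At 6 h the difference in Ern1 (0.18 ± 0.06, 0.0182) was lost without WT CFZ 6 h replicate 2 (0.13, 0.115) or Nrf1-KO CFZ 6 h replicate 1 (0.11, 0.189). That in Mbtps1 (0.08 ± 0.03, 0.0413) was lost without WT CFZ 6 h replicate 1 or 3 or any single Nrf1-KO CFZ 6 h library (0.06 to 0.09, adjusted p from 0.0525 to 0.219).

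Whether the response itself differed between the lines was tested by the interaction of line and CFZ, the log2 response in Nrf1-KO minus that in WT cells. At 6 h it was positive for 4 members and negative for 2, with 19.8% and 18.4% of all genes called, and at 24 h it was positive for 4 and negative for 4 (29.7% and 30.0%). The largest were those of Atf6b, −0.65 ± 0.06 at 6 h (adjusted p = 2.77e-11) and −0.77 ± 0.05 at 24 h (1.3e-13), and of Ern1, 0.45 ± 0.09 (0.000258) and 0.70 ± 0.08 (1.55e-08). Creb3 differed at 24 h, by −0.48 ± 0.07 (8.2e-07), where its rise in Nrf1-KO cells was smaller. Creb3l2 fell less in Nrf1-KO cells, by 0.28 ± 0.09 at 6 h (0.00931) and 0.34 ± 0.09 at 24 h (0.00123). Xbp1 rose more at 6 h, by 0.20 ± 0.05 (0.00175), and fell less at 24 h, by 0.29 ± 0.05 (2.31e-05). For Creb3l1 the difference was −0.06 ± 0.12 at 6 h and −0.02 ± 0.13 at 24 h (adjusted p = 0.755 and 0.89), the widest errors among the members.

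Several of these calls did not hold under all alternatives. The interaction of Atf6 at 6 h (0.19 ± 0.06, adjusted p = 0.00916) was lost without WT DMSO replicate 1 (0.14, 0.0841) or WT CFZ 6 h replicate 1 (0.15, 0.059), and that of Creb3l2 at 6 h without WT CFZ 6 h replicate 2 (0.22, 0.0634) or Nrf1-KO CFZ 6 h replicate 1 (0.18, 0.095). Those of Eif2ak3 (−0.17 ± 0.06 at both times, 0.0347 and 0.026) were lost under DESeq2 (adjusted p = 0.0887 and 0.0655). With upper-quartile scaling they were lost too (0.0976 and 0.0663). Library size alone lost the call at 6 h (0.0656), and no filter the call at 24 h (0.0614). At 6 h the call on Eif2ak3 was also lost without WT DMSO replicate 3, Nrf1-KO DMSO replicate 1 or 3 or Nrf1-KO CFZ 6 h replicate 1 or 2 (−0.12 to −0.17), and at 24 h without WT CFZ 24 h replicate 3 (−0.13) or Nrf1-KO CFZ 24 h replicate 1 (−0.14). That of Mbtps2 at 24 h (−0.17 ± 0.07, 0.0269) was lost under DESeq2 (0.0604) and with upper-quartile scaling (0.0632). It was also lost without WT CFZ 24 h replicate 1 or 3, Nrf1-KO DMSO replicate 1 or Nrf1-KO CFZ 24 h replicate 2 (−0.15 to −0.16). That of Mbtps1 at 24 h (0.11 ± 0.05, 0.0444) was lost on leaving out any library of the 4 groups but Nrf1-KO DMSO replicate 3 (adjusted p from 0.0505 to 0.118). Its value stayed between 0.0865 and 0.1302 with a library left out, so the call was marginal. Library size alone (0.636), no filter (0.0889) and the compared groups only (0.0522) lost it too.

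**Figure D4:**
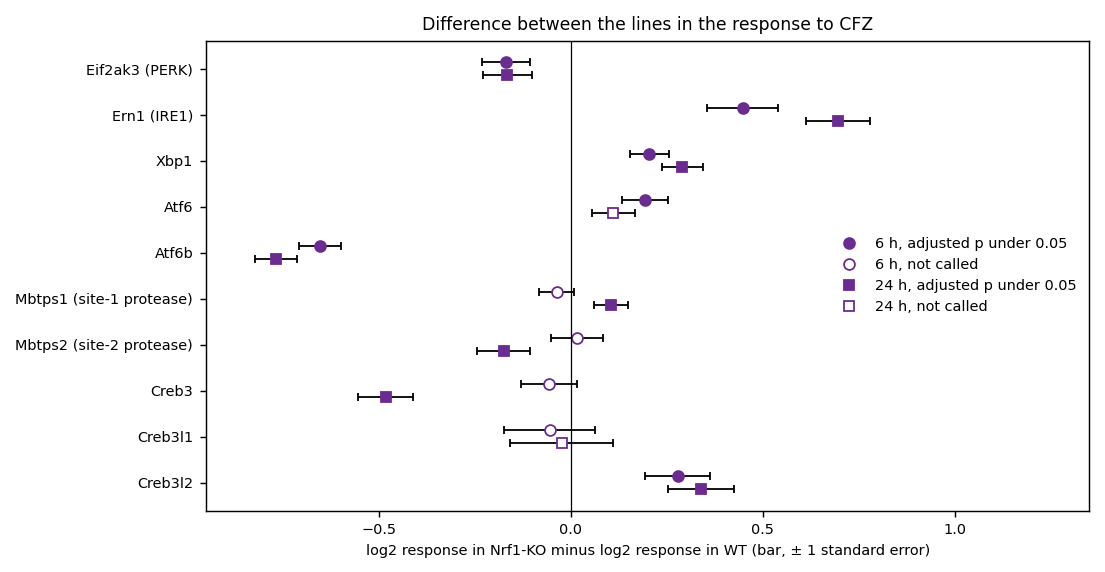
The x axis is the log2 response to CFZ in Nrf1-KO cells minus that in WT cells with ± 1 SE, at 6 h (circles) and 24 h (squares), filled where the adjusted p was under 0.05. Atf6b lies farthest left, at −0.65 and −0.77, and Ern1 farthest right, at 0.45 and 0.70.

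Chaperones and partners that act on the sensors were examined next. Of 10 such regulators 6 were higher and 2 lower in WT cells at 6 h (35.6% and 36.2% of all genes), and 8 higher and 2 lower at 24 h (43.2% and 40.5%). In Nrf1-KO cells 5 were higher and 3 lower at 6 h (34.5% and 35.0% of all genes), and 7 and 3 at 24 h (44.4% and 41.1%). The interaction was positive for 0 and negative for 4 of the 10 at 6 h (19.8% and 18.4% of all genes). At 24 h it was positive for 2 and negative for 4 (29.7% and 30.0%). Hspa5 encodes BiP, which binds all 3 sensors when they are idle, and it rose by 1.58 ± 0.04 and 2.13 ± 0.04 in WT cells at 6 h and 24 h and by 1.59 ± 0.04 and 2.96 ± 0.04 in Nrf1-KO cells. Dnajb9, whose product recruits BiP to IRE1, rose by 1.07 ± 0.10 at 6 h in WT cells, but its value at 6 h in Nrf1-KO cells was 0.26 ± 0.12 and not called. Pdia5, a disulphide isomerase that acts on ATF6, fell by 1.34 ± 0.05 in WT and by 1.90 ± 0.05 in Nrf1-KO cells at 24 h. The RNA ligase that joins cut Xbp1, Rtcb (listed as D10Wsu52e), rose at both times in both lines, by 0.58 ± 0.04 and 0.69 ± 0.04 at 24 h in WT and Nrf1-KO cells. Its cofactor Zbtb8os (archease) fell at 6 h in both lines (−0.355 ± 0.07 in WT and −0.75 ± 0.07 in Nrf1-KO cells), and at 24 h it was lower in Nrf1-KO cells (−0.66 ± 0.06) and higher in WT cells (0.21 ± 0.06). The IRE1 adaptor Traf2 rose at 6 h by 0.89 ± 0.06 in WT and 0.96 ± 0.06 in Nrf1-KO cells.

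Known targets of the 3 branches were counted against the same background, between 34.5% and 44.4% of all genes called in either direction with CFZ. Of 10 ATF6 targets all were higher at 6 h in both lines, and 9 at 24 h in each. Their median log2 fold change at 24 h was 0.69 in WT and 0.80 in Nrf1-KO cells, and 8 of the 10 had a positive interaction at 24 h (29.7% of all genes), against 2 positive, 1 negative and 7 not called at 6 h (19.8% and 18.4%). Herpud1, which was higher at 6 h, had fallen below DMSO at 24 h in WT cells (−0.85 ± 0.03). Of 8 PERK targets all were higher at 6 h in both lines, with a median of 1.15 in WT and 2.25 in Nrf1-KO cells, and 7 of the 8 had a positive interaction at each time. At 24 h 6 were higher and 2 lower in WT cells, and 7 and 1 in Nrf1-KO cells. In DMSO 6 of these 8 were lower and 1 higher in Nrf1-KO than in WT cells, with a median difference of −0.42. Between the lines in DMSO 29.1% of all genes were lower and 25.7% higher. At 6 h of CFZ 7 of the 8 were higher in Nrf1-KO cells, with a median of 0.45, beside 30.5% of all genes. Atf3, a stress factor, rose by 4.22 ± 0.07 in WT and 6.11 ± 0.08 in Nrf1-KO cells at 6 h. Of 8 XBP1 targets 6 were higher and 1 lower in WT cells at 6 h and 5 higher and 3 lower at 24 h. In Nrf1-KO cells 5 were higher and 2 lower at 6 h, and 4 higher and 3 lower at 24 h. The interaction was positive for 0 and negative for 4 of these 8 at 6 h (19.8% and 18.4% of all genes). At 24 h it was positive for 1 and negative for 2 (29.7% and 30.0%). At 6 h of CFZ 2 of the 8 were higher and 4 lower in Nrf1-KO than in WT cells (30.5% and 30.8%). These genes share branches in part, and neither a list as a whole nor a difference between branches was tested.

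**Figure D5:**
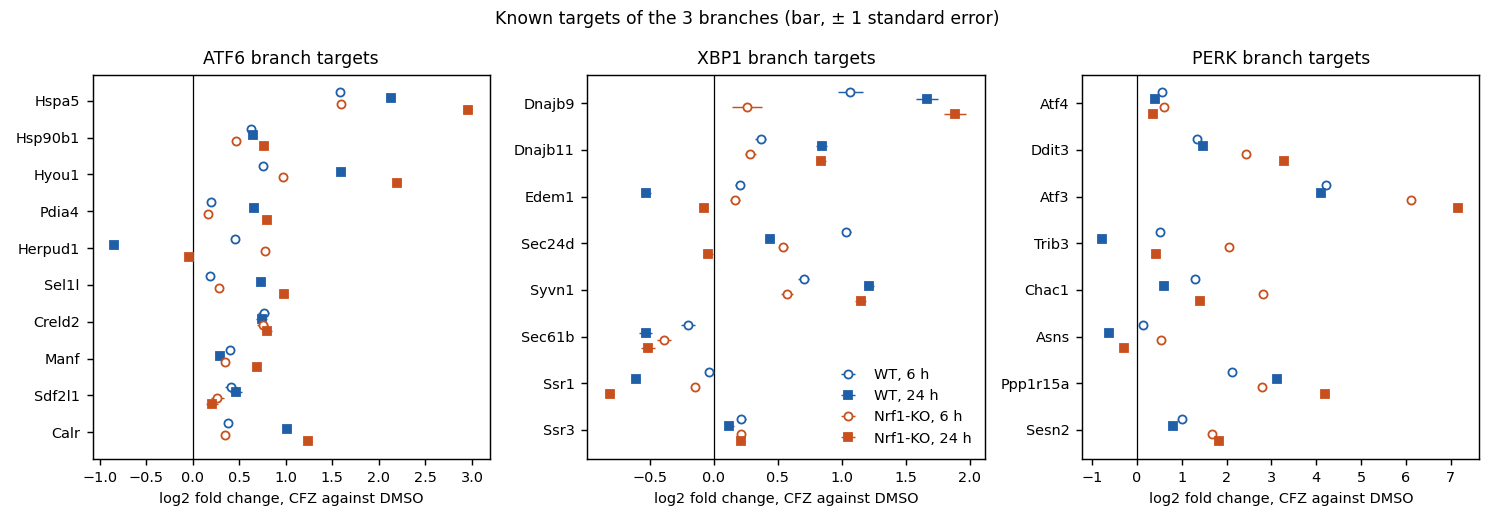
The x axis of each panel is the log2 fold change of CFZ over DMSO with ± 1 SE, for the listed targets of the ATF6, XBP1 and PERK branches. WT is blue and Nrf1-KO orange, with open circles for 6 h and filled squares for 24 h. At 6 h all ATF6 and PERK targets lie right of 0, with Atf3 at 4.22 and 6.11, while Sec61b lies left of 0 among the XBP1 targets.

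IRE1 also cuts other mRNAs at the ER, and 7 such known substrates were examined. All 7 were lower at 6 h in WT cells and 6 in Nrf1-KO cells, and 6 were lower at 24 h in both, where 36.2%, 35.0%, 40.5% and 41.1% of all genes were lower in these comparisons. Bloc1s1, the most widely shared substrate, fell by 0.51 ± 0.06 and 0.83 ± 0.07 in WT cells at 6 h and 24 h and by 0.71 ± 0.07 and 1.33 ± 0.07 in Nrf1-KO cells. Rdh5 overlaps 55.9% of its exon bases on the same strand, where the assignment of reads is uncertain. Hgsnat, a lysosomal enzyme gene, was the exception at 24 h, higher by 2.72 ± 0.04 in WT and 2.66 ± 0.04 in Nrf1-KO cells. Several of these substrates (Col6a1, Pdgfrb, Sparc) are also fibroblast genes, and the fibroblast markers fell over the same times (all 8 were lower in WT cells at 6 h and 24 h, and in Nrf1-KO cells 6 were lower at 6 h and 6 lower and 1 higher at 24 h). The part of either in these falls was not tested.

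Across the 18 libraries each member was matched to the genes whose log2 level followed it most closely. The 2 closest to Ern1 were Hyou1, an ER chaperone of the ATF6 list (Pearson r = 0.993), and Zbtb10 (0.992). Atf6 was closest to Ogfod1 (0.992), Creb3l2 to Cic (0.992), Mbtps2 to Akap7 (0.986) and Xbp1 to Sar1a (0.984), a small GTPase of vesicle export from the ER, and to the collagen chaperone gene Serpinh1 (0.978). Atf6b was closest to 9530068E07Rik (0.977), Mbtps1 to St3gal4 (0.976), Creb3 to Tnpo3 (0.976) and Creb3l1 to Tkt (0.975). Eif2ak3, the member with the narrowest course but for Mbtps1, had the weakest closest match (Pmvk, 0.940). These values are descriptions over libraries that share 6 groups and a common treatment.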

How the data were processed

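Poly(A) RNA of 18 cultures was sequenced with a stranded kit as paired 125-base reads. The authors used RNA Express, which joins STAR and DESeq2, and deposited raw counts, whole reads per gene symbol and library without normalization. The genome build, annotation, versions and use of strand in counting are not given in the sources used here. Groups came from the sample labels.

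Counts were filtered by edgeR 4.0.16 (minimum count 10, total 15; R 4.3.3), scaled by TMM and fitted with a quasi-likelihood model holding the 6 groups of 18 libraries. 11 comparisons were made, with Benjamini-Hochberg adjustment over 11762 genes and a threshold of 0.05. The SE is the size of the log2 fold change over the square root of F. With a common biological coefficient of variation of 3.13%, small differences pass the threshold. No 2 libraries of a group differed by less than sampling noise (chi-square per degree of freedom at least 1.438). Recovery was tested on simulated data.

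Gene models were GENCODE M21 on GRCm38, matched by symbol. Promoters came from RefSeq. Named genes are the 10 members, Nfe2l1, list genes and the 2 closest genes by Pearson r (prior count 2), and genes overlapping a member were added after values were seen. The members and lists were chosen with earlier results of these data known. Alternatives were DESeq2 1.42.0, upper-quartile scaling, library size alone, no filter, a mean count of at least 10, the compared groups only, a replicate block, each library left out, and a minimum fold of 2. The replicate numbers in the titles do not pair the libraries: over 45 same-numbered pairs of libraries the mean correlation of deviations was 0.0136 (from −0.0494 to 0.0972).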

Additional observations from a re-analysis of the deposited data

Results flagged for a closer look

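For 9 members the log2 response to CFZ differed between the lines at 6 h, at 24 h or at both. The test was the interaction term of edgeR's quasi-likelihood test, and the values are Nrf1-KO minus WT. Of all genes tested, 19.8% were called positive and 18.4% negative at 6 h, and 29.7% and 30.0% at 24 h, so the count alone does not set the members apart. Atf6b changed in opposite directions (−0.65 ± 0.06 SE at 6 h and −0.77 ± 0.05 at 24 h). Ern1 rose more in Nrf1-KO cells (0.45 ± 0.09 and 0.70 ± 0.08). Creb3l2 fell less in Nrf1-KO cells (0.28 ± 0.09 and 0.34 ± 0.09), and Xbp1 had a larger rise at 6 h and a smaller fall at 24 h (0.20 ± 0.05 and 0.29 ± 0.05). Creb3 differed at 24 h (−0.48 ± 0.07) and Atf6 at 6 h (0.19 ± 0.06). The smaller differences were those of Eif2ak3 (−0.17 ± 0.06 at 6 h and −0.17 ± 0.06 at 24 h), Mbtps2 at 24 h (−0.17 ± 0.07) and Mbtps1 at 24 h (0.11 ± 0.05). These smaller differences, and those of Atf6 and Creb3l2 at 6 h, did not hold under all alternatives.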

How the results depend on the processing

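Over 110 pairs of a member and a comparison, 1550 alternative values were computed, and 1445 kept both their direction and their side of the threshold. In 81 pairs every alternative did. With a minimum fold of 2 the counts fell, since few members change that far. The share of all genes passing this cut was not computed, so these counts do not set the members apart. Over all genes the median size of the log2 fold change lay between 0.175 and 0.576 in the 11 comparisons. In WT cells 0 members were then higher and 1 lower at 6 h and 1 higher and 1 lower at 24 h. In Nrf1-KO cells 0 were higher and 0 lower at 6 h, and 2 were higher and 1 lower at 24 h. From 6 h to 24 h 0 were higher and 1 lower in WT cells, and 1 higher and 0 lower in Nrf1-KO cells. Between the lines, and for the interaction, 0 were called either way.

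Members higher in Nrf1-KO DMSO numbered 1, but 2 with upper-quartile scaling, no filter or the compared groups only, 3 with library size alone, and 1 to 2 with a library left out. After 6 h of CFZ the members higher in Nrf1-KO than in WT cells numbered 5 in place of 3 with upper-quartile scaling or library size alone, and 2 with any library left out, and those lower 3 to 5 with a library left out (5 without Nrf1-KO CFZ 6 h replicate 3). For the interaction, negative members fell from 2 to 1 at 6 h with DESeq2, upper-quartile scaling and library size alone (1 to 2 with a library left out), and from 4 to 2 at 24 h with DESeq2 and upper-quartile scaling (2 to 4 with a library left out, 2 without WT CFZ 24 h replicate 3). Negative interactions over all genes fell at 6 h from 2170 to 1874, 1816 and 1964 with those alternatives in turn. At 24 h they fell from 3532 to 3256 with DESeq2 and 3312 with upper-quartile scaling. The interaction of Mbtps1 at 24 h was 0.03 with library size alone (adjusted p = 0.636). Causes were not tested.

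The replicate block gave 2 members higher in Nrf1-KO DMSO in place of 1, through Creb3l2 (0.11, adjusted p = 0.0228), and changed no other call on a member. Of all genes 3032 were then higher in that comparison, in place of 3017. Since the replicate numbers do not pair the libraries, this says little.

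Signs turned only for differences near 0 that were not called. Eif2ak3 in Nrf1-KO cells at 6 h was −0.0277 with upper-quartile scaling, −0.066 with library size alone and −0.003 with no filter, and Creb3l1 there was −0.0235 with library size alone. Mbtps1 from 6 h to 24 h in WT cells was −0.0143 with upper-quartile scaling, −0.0144 with no filter, and −0.0399 to 0.0203 with a library left out. For the interaction, Mbtps2 at 6 h was −0.0058 with no filter and −0.0581 to 0.046 with a library left out. Creb3l1 was −0.1367 to 0.0095 at 6 h with a library left out, and at 24 h it was 0.0045 with upper-quartile scaling and −0.1571 to 0.0526 with a library left out.

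Depth limits Creb3l1 most, which had as few as 89 reads in a library, and the widest errors of the interaction.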

Other observations

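Creb3l4 was the only gene tested of 3 relatives outside the 10 (Ern2 and Creb3l3 were below the filter), and it was called with CFZ in Nrf1-KO cells at 24 h alone (0.93 ± 0.31 on the log2 scale, SE). The other eIF2α kinases, which act beside PERK under other stresses, were all 3 higher at 24 h in both lines, where 43.2% (WT) and 44.4% (Nrf1-KO) of all genes were. Eif2ak2 (PKR, which senses double-stranded RNA) rose at 24 h by 0.93 ± 0.04 in WT and 0.39 ± 0.04 in Nrf1-KO cells, with an interaction of −0.54 ± 0.06. Eif2ak1 (HRI) rose at 24 h by 0.77 ± 0.04 and 0.76 ± 0.04.

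The site-1 and site-2 proteases also cut the SREBP factors of lipid synthesis. Of 5 SREBP pathway genes 2 were higher and 3 lower in WT cells at 24 h, and 3 higher and 2 lower in Nrf1-KO cells, beside 43.2% and 40.5% of all genes in WT and 44.4% and 41.1% in Nrf1-KO cells. Srebf1 rose in both (0.50 ± 0.04 and 0.43 ± 0.04), Srebf2 fell in both (−1.30 ± 0.04 and −1.14 ± 0.04), and Scap, which escorts the SREBPs to the Golgi, fell in WT (−0.27 ± 0.04) and rose in Nrf1-KO cells (0.21 ± 0.04). Of 5 targets ascribed to the CREB3 family, 2 were higher and 3 lower at 24 h in WT cells, and 1 was higher, 3 lower and 1 not called in Nrf1-KO cells, against the same shares. The coat protein gene Sec23b rose at that time (0.75 ± 0.04 in WT and 0.34 ± 0.04 in Nrf1-KO cells), while the collagen genes Col1a1 (−3.13 ± 0.10 and −2.85 ± 0.10) and Col1a2 (−2.96 ± 0.05 and −1.995 ± 0.05, with an interaction of 0.96 ± 0.07) fell.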
